A study of Mus musculus with 6 samples.

Results

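Nuclear receptor genes were examined in irradiated mouse jejunum as a group of 38 genes, out of 23620 named genes with a non-control probe on the array. A spot belonged to the group when the array's own annotation gave it the name of a listed receptor, and every probe of each receptor was kept. All 38 genes had a probe. In all they had 60 probes on 98 spots, with 20 genes on 1 probe, 15 on 2, 2 on 3 and 1 on 4. The group holds the retinoid receptors, the peroxisome proliferator-activated receptors (PPARs), the receptors for sterols, bile acids, xenobiotics and vitamin D, the thyroid hormone receptors, the ROR and orphan receptors, and the receptors for steroids with their relatives.

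Nuclear receptors are transcription factors that bind short DNA repeats near their target genes, many of them only after a small lipid-soluble ligand enters a pocket of the protein. Many non-steroid members bind DNA as a heterodimer with a retinoid X receptor (RXR), exchanging corepressors for coactivators when ligand arrives. In the small intestine, members of the family govern the uptake and metabolism of fat, retinol, sterols, bile acids, calcium and ingested chemicals in enterocytes.

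The jejunum came from 6 male C57BL/6J mice. Of these, 3 were given VND3207 into the stomach at 100 mg/kg and 3 received the vehicle, and every mouse was exposed to 9 Gy of radiation 0.5 h later. VND3207 is known here only by this code name. Tissue was taken 6 h after the radiation, and each mouse was hybridised to its own 1-colour array, so both groups are irradiated and the difference between them is that of VND3207 against vehicle. Mouse age was not given in the sources used here. Values below are log2 of the scanner's processed signal minus the 75th percentile of the same array, called the log2 signal, so that 0 marks the 75th percentile of all spots. Differences are VND3207 minus vehicle on this log2 scale with limma's standard error and n = 3 mice a group.

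The VND3207 arrays had 58.8% to 61.4% of spots well above background and the vehicle arrays 66.7% to 70.0%. No spot was saturated. The VND3207 arrays lay on slide 2 and scan 2 and the vehicle arrays on slide 1 and scan 1, so slide, scan and treatment cannot be told apart in any value below. Enterocyte markers had a summed linear signal (in units of the 75th percentile) of 2237 to 2499 on the VND3207 arrays and 3014 to 3524 on the vehicle arrays, and 5 of the 12 were called lower, against 9.21% of all named genes by their brightest probe. After a correction for trends within each array, described below, 2 of the 12 were lower and 1 higher, and their median difference of -0.30 became -0.06. Enteric neuron and glia markers summed to 12.8 to 17.4 on the VND3207 arrays and 22.5 to 28.6 on the vehicle arrays, with 2 of 9 called lower. Most of each sum came from Snap25 alone, at a mean log2 signal of 3.588 in VND3207 mice and 4.385 in vehicle mice. The median difference of these markers was -0.20, and -0.11 after the trend correction, with 1 called lower. Endothelial markers summed to 12.4 to 13.7 on the VND3207 arrays and 15.2 to 15.5 on the vehicle arrays, with 2 of 7 called lower. Their median difference was 0.08, and 0 were called lower after the trend correction. T cell and innate lymphoid markers summed to 115 to 171.8 on the VND3207 arrays and 131 to 160.8 on the vehicle arrays. Their median difference was 0.26, and of the 9 tested only Cd4 was called lower (-1.18). The part of these markers in the receptor values was not tested. The defining jejunal markers Lct, Sis and Alpi were well above background on every array, and gastric and duodenal markers summed to at most 0.194 on the VND3207 arrays and 0.526 on the vehicle arrays. VND3207 replicate 3 stood apart in smooth muscle. The 8 smooth muscle markers summed to 264.4, 248.0 and 59.0 on the VND3207 arrays, and to 216.9 to 275.3 on the vehicle arrays. The called receptors are therefore also given without that mouse. In whole tissue, fewer cells of a type and less RNA per cell cannot be told apart.

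Most nuclear receptors gave a measurable signal in jejunum. A probe well above background on all 6 arrays was found for 34 of the 38 genes, and 48 of the 60 probes met that mark. The other 4 genes had no tested probe. They were Nr0b1, a repressor of steroidogenic gene expression; Nr4a3, an inducible orphan receptor; Esr1, the oestrogen receptor alpha; and Pgr, the progesterone receptor. Nr0b1 and Nr4a3 had 1 probe each and Pgr had 2, none of them well above background on any array. Esr1 had 4 probes, of which 1 was well above background on 1 VND3207 array and the rest on none. Probes entered the test when at least 3 of the 6 arrays, of either group, showed them well above background, which 51 probes of 34 genes did. The 3 tested probes that missed the mark on some array were a Rarb probe and an Rxrg probe, each well above background on 1 VND3207 array and 3 vehicle arrays, and an Nr2f1 probe with 2 and 2.

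**Figure D1:**
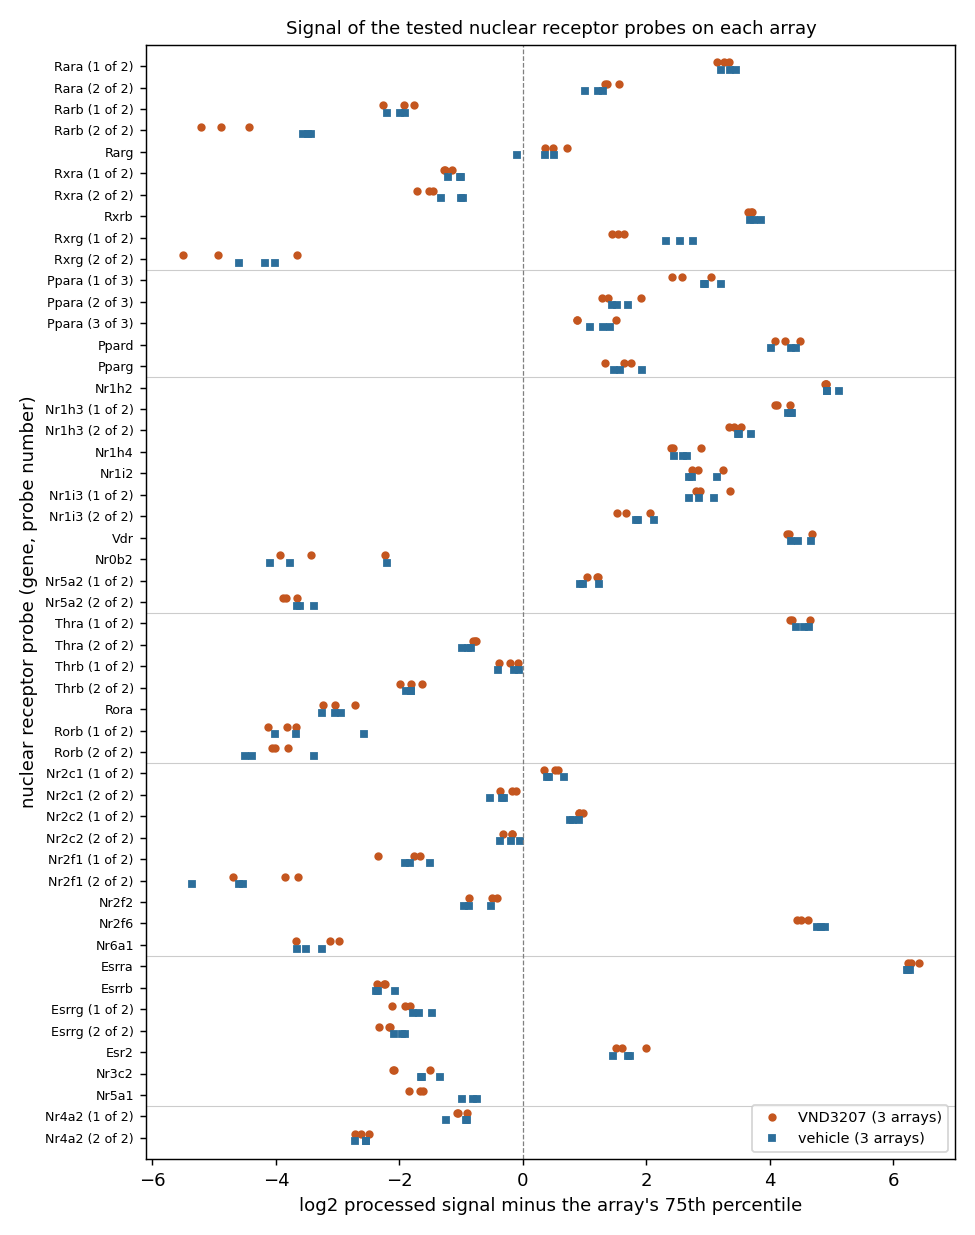
Log2 processed signal minus the array's 75th percentile (horizontal axis) of the 51 tested nuclear receptor probes (vertical axis, by class), with VND3207 arrays as circles above vehicle arrays as squares, 3 mice each. The circles and squares of most probes overlap, while 1 probe each of Rxrg, Rarb and Nr5a1 has all 3 circles to the left of all 3 squares with a clear gap.

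VND3207 was associated with a lower signal of 3 nuclear receptor probes and a higher signal of 0 at a limma adjusted p under 0.05. Those 3 are 5.88% of the 51 tested probes, against 14.6% called lower and 0.925% called higher among all 36102 tested probes, so the receptor genes did not exceed the background share in either direction. Of the 3, those of Rxrg and Nr5a1 were well above background on all 6 arrays. At an unadjusted p under 0.05 there were 5 receptor probes, all lower. By the brightest probe of each named gene, 9.21% of 17870 genes were called lower and 0.755% higher, and 2 of the 34 tested receptor genes (Rxrg and Nr5a1) were called lower. The groups did not overlap for 9 receptor probes that were lower in VND3207 mice (17.6%, against 24.9% of all tested probes) and for 3 that were higher (5.88%, against 9.41%).

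The background leans towards lower values on dim probes. Above the 75th percentile, 4.57% of all tested probes were called lower and 0.662% higher, and of the 25 receptor probes there 1 was lower (Rxrg). Below it, 20.3% of all were called lower and 1.08% higher, and of the 26 receptor probes there 2 were lower (Rarb and Nr5a1). The median difference was -0.02 over the receptor genes and -0.06 over all tested probes. It was 0.01 for all bright probes and -0.16 for all dim ones. When trends along array rows and columns, with brightness and with GC content were removed from each array, the receptor median was -0.01, against 0.02 over all tested probes. Values after this trend correction are given beside each called receptor. It left 2 receptor probes lower (against 6.65% of all tested probes) and 1 higher (against 2.76%). Quantile normalization, which gives all arrays the same distribution of values, left 3 lower (against 9.02%) and 0 higher (against 2.36%).

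For the 48 receptor probes that were not called, the 95% interval of the difference lay within 1 log2 unit of 0 for 44 probes and within 0.5 for 28. A change of less than that size is not excluded for them. Replicate mice differed by a median within-group SD of 0.17 over the receptor probes, against 0.20 over all tested probes.

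**Figure D2:**
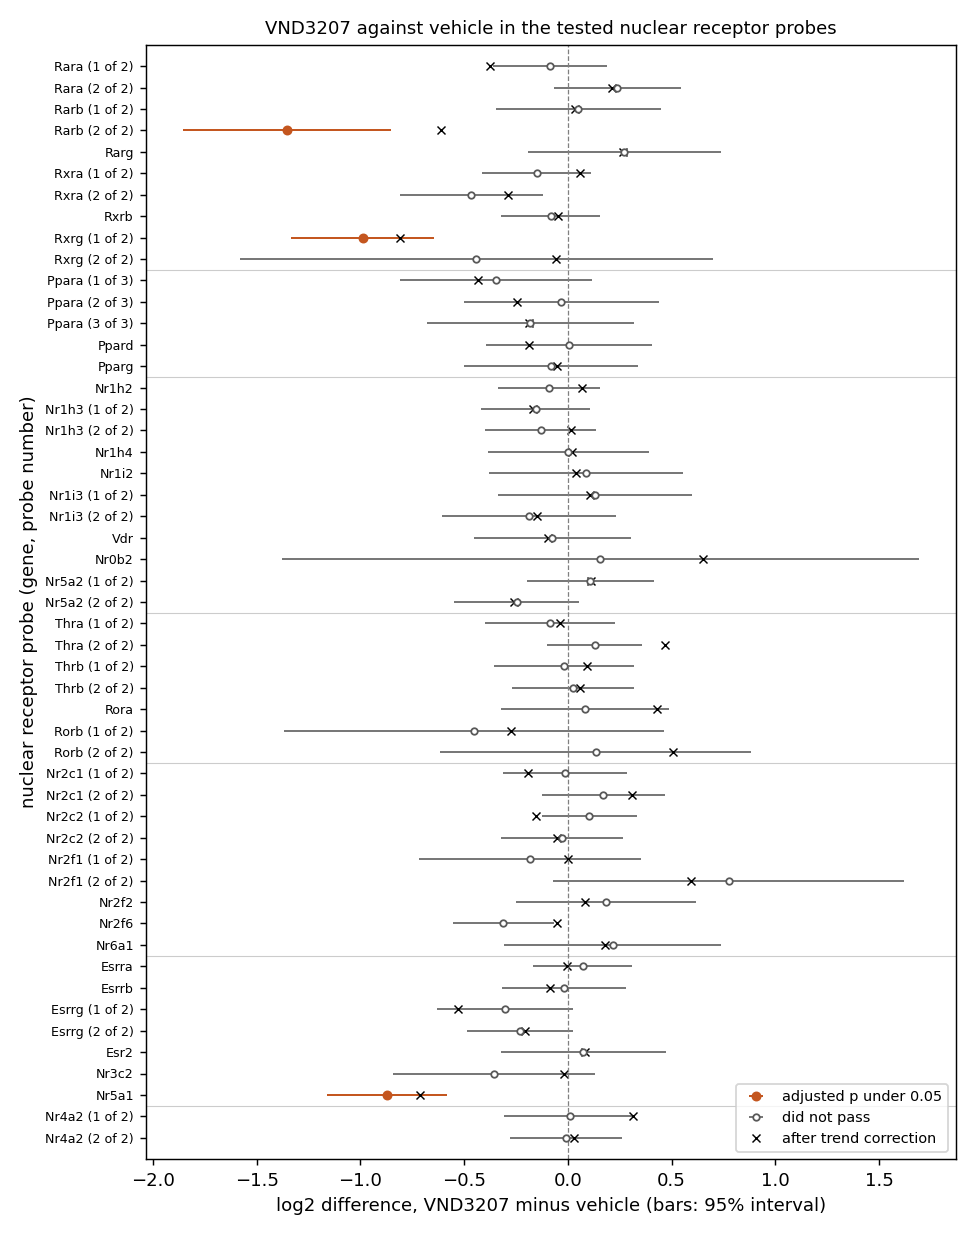
Log2 difference, VND3207 minus vehicle (horizontal axis), for the 51 tested nuclear receptor probes (vertical axis, by class), with 95% intervals of the limma fit as bars and values after the trend correction as crosses. The filled points are the 3 called probes, of Rarb (-1.35), Rxrg (-0.99) and Nr5a1 (-0.87), and the open points scatter on both sides of 0.

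The retinoid receptors held 2 of the 3 called probes. Those were 2 of their 10 tested probes, against 14.6% of all tested probes called lower, and are not read as a trait of the class. Retinoic acid receptors (Rara, Rarb, Rarg) are activated by all-trans retinoic acid, and the RXR genes (Rxra, Rxrb, Rxrg) encode the shared heterodimer partners of much of the family. In both Rxrg and Rarb a further probe of the same gene did not pass, so the stretches of the probes are shown here to set the places apart. Each is 30 bases of a 60-base probe, read 5′ to 3′ on the strand of the transcript, with the polyadenylation signal AATAAA in capitals where the stretch holds it. Positions are those of the whole probe in the mm9 build given by the files.
Rxrg, upstream probe A_55_P2044359 (chr1:169569496-169569555, plus strand): tgtgatgcttgtAATAAAgacaacctttct
Rxrg, downstream probe A_51_P513311 (chr1:169569624-169569683, plus strand): aggtctttccggcagttcttgggaagagtg
Rarb, isoform 1 probe A_55_P2099585 (chr14:17651424-17651483, minus strand): tattgagcctgtttgcacacactcaccacc
Rarb, 3′ probe A_55_P1962154 (chr14:17263367-17263426, minus strand): ttccatggagtctcctggcaaagAATAAAt
Rarb, untested probe A_55_P2084807 (chr14:17264648-17264707, minus strand): aattctgaaggacatgaacccttgacccca

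The Rxrg probe that was called holds the motif AATAAA, and the other Rxrg probe begins 68 bases beyond its end. The Rarb probe that was called is annotated to the beta 1 isoform and lies 386.717 kb upstream of the nearer 3′ probe. AATAAA was present in 9 of the 60 receptor probes, against 10.1% of all 55681 non-control probes. Whether it marks a transcript end here was not tested.

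The upstream Rxrg probe had a lower signal in VND3207 mice. The log2 signal was 1.45, 1.64 and 1.55 in the VND3207 mice, against 2.75, 2.54 and 2.31 in the vehicle mice. All VND3207 mice were below all vehicle mice. The difference was -0.99 ± 0.14 (95% interval -1.33 to -0.64, adjusted p = 0.00692), or a signal 0.504 times that of vehicle mice. It remained called after the trend correction (-0.81, adjusted p = 0.0234) and without VND3207 replicate 3 (-0.99, adjusted p = 0.0187).

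The downstream Rxrg probe gave log2 signals of -3.66, -4.95 and -5.50 in VND3207 mice and -4.01, -4.59 and -4.18 in vehicle mice. Here the groups overlapped and the VND3207 mice were widely spread. The difference was -0.44 ± 0.47 (95% interval -1.58 to 0.70, adjusted p = 0.624). That interval is too wide to set this probe apart from the upstream one or from no difference. The difference was -0.06 after the trend correction and -0.05 with quantile normalization. Over all 6 arrays the mean log2 signal was 2.04 on the upstream probe and -4.48 on the downstream one. Why these probes of 1 gene differ so much in level was not tested.

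Rarb was called lower on its isoform 1 probe. This probe was well above background on 1 VND3207 array and 3 vehicle arrays, and so entered the test mainly through the vehicle group. That probe had log2 signals of -5.22, -4.89 and -4.43 in VND3207 mice, against -3.48, -3.44 and -3.56 in vehicle mice. No VND3207 value reached a vehicle value, and the vehicle values lay closer together. The difference was -1.35 ± 0.21 (adjusted p = 0.00833), a value that rests on VND3207 signals near background and gives no exact fold, and without VND3207 replicate 3 it was -1.56 (adjusted p = 0.00407). The VND3207 values sit at the dim end of the scale. The lowest signal called well above background was -5.13, -5.17 and -4.84 on the VND3207 arrays, and -5.79, -5.78 and -5.56 on the vehicle arrays. The call was lost after the trend correction (-0.61, adjusted p = 0.0840) and with normexp background correction (-0.43, adjusted p = 0.0553).

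The 3′ probe of Rarb had log2 signals of -1.76, -1.93 and -2.26 in VND3207 mice and -1.98, -2.21 and -1.91 in vehicle mice. The groups overlapped, with a difference of 0.05 ± 0.16 (adjusted p = 0.884). The further 3′ probe was not well above background on any array.

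**Figure D3:**
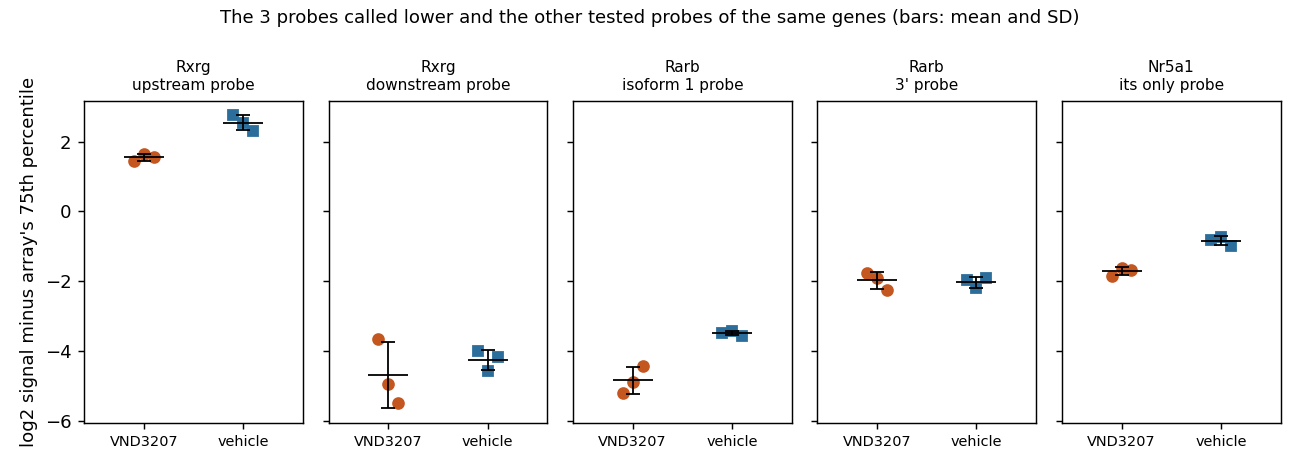
Log2 signal minus the array's 75th percentile (vertical axis) in the 3 VND3207 mice (circles, left) and the 3 vehicle mice (squares, right) for the called Rxrg, Rarb and Nr5a1 probes and the other tested probes of Rxrg and Rarb, with mean and SD as bars. The upstream Rxrg, isoform 1 Rarb and Nr5a1 probes separate the groups, and the downstream Rxrg and 3′ Rarb probes do not.

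The other retinoid receptors did not pass. Rara was at 3.15, 3.27 and 3.35 in VND3207 mice and 3.36, 3.21 and 3.45 in vehicle mice on its brighter probe, and the groups overlapped. Its difference was -0.09 ± 0.11, while the other Rara probe gave 0.24 ± 0.13 with every VND3207 mouse above every vehicle mouse (adjusted p = 0.298). Rarg, the receptor best known from epithelium of the skin, differed by 0.27 ± 0.19.

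Rxrb was at 3.64, 3.71 and 3.70 in VND3207 mice and 3.69, 3.87 and 3.75 in vehicle mice, which overlap, with a difference of -0.08 ± 0.10. Rxra had 2 probes. The brighter differed by -0.15 ± 0.11. The dimmer ranged from -1.72 to -1.46 in VND3207 mice, against -1.33 to -0.97 in vehicle mice. These did not overlap, and the difference of -0.47 ± 0.14 missed the threshold (adjusted p = 0.0842) and came to -0.29 after the trend correction. It was called with the 75th percentile taken over probes well above background on all arrays (-0.50, adjusted p = 0.0479).

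The median difference was 0.01 over 20 tested retinoic acid target and retinoid metabolism genes. Of these, 1 was called lower, against 9.21% of all named genes, and 0 higher. That gene was Crabp2, which carries retinoic acid to its nuclear receptors. Its log2 signal was -1.35, -1.25 and -1.07 in VND3207 mice, against -0.53, -0.64 and -0.57 in vehicle mice. The groups did not overlap, and the difference of -0.64 ± 0.11 (adjusted p = 0.0130) was -0.59 after the trend correction (adjusted p = 0.0314). The retinol-binding and retinol-oxidising genes Rbp2, Adh1 and Aldh1a1 did not pass, at -0.15 ± 0.19, -0.22 ± 0.24 and -0.53 ± 0.25.

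Nr5a1, also called steroidogenic factor 1 and known as the regulator of steroid synthesis in adrenal and gonad, was the remaining called receptor. Its only probe, A_55_P2076560 (mm9 chr2:38548180-38548239, minus strand), holds the motif AATAAA, shown in capitals. Whether the motif lies at the transcript's end was not tested.
Nr5a1 probe: ctgcagccctgaAATAAAttttgcaattag

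Nr5a1 had log2 signals of -1.85, -1.62 and -1.67 in VND3207 mice, against -0.81, -0.74 and -0.98 in vehicle mice. All VND3207 mice were below all vehicle mice, by more than the spread within either group. The difference was -0.87 ± 0.12 (95% interval -1.16 to -0.58, adjusted p = 0.00596), or 0.547 times the vehicle signal. It was -0.71 after the trend correction (adjusted p = 0.0266) and -0.89 without VND3207 replicate 3 (adjusted p = 0.0146).

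Nr5a2, or LRH-1, is the relative of Nr5a1 that acts in intestinal crypts, where it drives cell renewal and local glucocorticoid synthesis. Its brighter probe differed by 0.11 ± 0.13 (adjusted p = 0.655). The dimmer differed by -0.25 ± 0.12 with no overlap between groups (adjusted p = 0.274). Among 7 tested LRH-1 target and local steroid synthesis genes, 2 were called lower and 0 higher, with a median of 0.16. The share called lower among all named genes was 9.21%. Star, which moves cholesterol into mitochondria, had log2 signals of -2.95, -3.48 and -3.12 in VND3207 mice, against -2.53, -2.08 and -2.46 in vehicle mice. No values overlapped, and its difference of -0.83 ± 0.19 (adjusted p = 0.0342) was -0.58 after the trend correction (adjusted p = 0.0984). Cyp11b1, which completes glucocorticoid synthesis, was well above background on 0 VND3207 arrays and 3 vehicle arrays, and so entered the test through the vehicle group alone. In VND3207 mice its signal was at least 1.32-fold lower (limma adjusted p = 0.0173), and the call was lost after the trend correction (adjusted p = 0.0525) and with quantile normalization (adjusted p = 0.0701). Ccnd1, a cyclin, differed by 0.37 ± 0.11 without passing (adjusted p = 0.0849).

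The PPARs did not pass on any of their 5 probes. They bind fatty acids and turn on genes of fat oxidation and storage. Ppard, the form active in intestinal epithelium, had log2 signals of 4.08, 4.49 and 4.24 in VND3207 mice and 4.34, 4.43 and 4.02 in vehicle mice. The groups overlapped completely, with a difference of 0.00 ± 0.16. Ppara, the form that senses fasting and dietary fat, differed by -0.35 ± 0.19 on its brightest probe and by -0.03 and -0.18 on the others. Pparg, best known from fat cells and read from 10 spots of its probe, differed by -0.08 ± 0.17. Its log2 signals were 1.64, 1.34 and 1.76 in VND3207 mice and 1.57, 1.92 and 1.48 in vehicle mice, which interleave. The 7 adipocyte markers summed to 131.8, 48.6 and 34.4 on the VND3207 arrays and to 54.1, 35.2 and 27.9 on the vehicle arrays. The highest sum was in VND3207 replicate 1, where Pparg was not highest. Among them Cidec was bright in every mouse, at log2 signals of 4.84, 4.62 and 4.87 (VND3207) and 4.88, 4.98 and 4.29 (vehicle). Cfd varied widely, at 5.70, 3.73 and -0.48 (VND3207) and 3.74, -1.37 and 1.24 (vehicle). The part of fat tissue in the Pparg values was not tested.

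Of 17 tested PPAR target genes, 1 was called lower, against 9.21% of all named genes, and 0 higher. The median difference was -0.04. The called gene was Fabp1, the fatty acid-binding protein of liver and intestine, which also stands among the enterocyte markers. Its log2 signal was 7.89, 8.11 and 8.15 in VND3207 mice, against 8.82, 9.05 and 8.74 in vehicle mice. Every VND3207 mouse was below every vehicle mouse, and the difference was -0.82 ± 0.13 (adjusted p = 0.00968). With quantile normalization it was -0.42 and the call was lost (adjusted p = 0.0572). After the trend correction it was -0.62 and still called (limma adjusted p = 0.0362). The fat oxidation gene Acaa2 (-0.11 ± 0.24) and the transcription factor gene Creb3l3 (0.05 ± 0.12) did not pass.

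None of the 11 probes for sterol, bile acid, xenobiotic and vitamin D receptors, Nr0b2 and Nr5a2 included, passed the limma test, and their differences lay between -0.25 and 0.16. Nr1h2, the oxysterol receptor LXR beta, had log2 signals of 4.91, 4.91 and 4.89 in VND3207 mice, against 5.12, 4.93 and 4.93 in vehicle mice. The groups just failed to overlap, and the difference of -0.09 ± 0.10 did not pass (adjusted p = 0.637). Nr1h3, LXR alpha, had 4.11, 4.09 and 4.33 in VND3207 mice and 4.37, 4.35 and 4.29 in vehicle mice. These overlap, with a difference of -0.15 ± 0.11.

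Vdr, the vitamin D receptor, had log2 signals of 4.30, 4.28 and 4.68 in VND3207 mice and 4.46, 4.67 and 4.35 in vehicle mice. The values of the groups interleave, and the difference was -0.07 ± 0.16. Nr1i3, the constitutive androstane receptor CAR, had 2.87, 2.80 and 3.36 in VND3207 mice and 2.69, 3.10 and 2.85 in vehicle mice on its brighter probe. These too interleave, with a difference of 0.13 ± 0.19, and its other probe gave -0.19 ± 0.17. Nr1i2, the pregnane X receptor PXR, differed by 0.09 ± 0.19, and Nr1h4, the bile acid receptor FXR, by 0.00 ± 0.16.

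Nr0b2, or SHP, is a receptor without a DNA-binding domain that represses others. It varied more among mice than between groups, with -3.43, -3.94 and -2.23 in VND3207 mice and -4.09, -2.20 and -3.77 in vehicle mice. Its difference was 0.16 ± 0.63 (95% interval -1.38 to 1.69).

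Calls among the target genes of these receptors are set against 9.21% of all named genes called lower and 0.755% called higher. Of 13 tested LXR targets and 14 tested PXR and CAR targets, 0 were called in either direction. The medians were 0.12 and -0.26. The sterol exporter Abcg5 (-0.33 ± 0.10, adjusted p = 0.0941) was an LXR target that missed the threshold, and the drug-metabolising Cyp2b10 (-0.07 ± 0.31) and Gsta1 (-0.51 ± 0.34) were among the PXR and CAR targets. Among 7 tested FXR targets, 1 was called lower and 0 higher, with a median of 0.16. It was Fgf15, the ileal hormone that restrains bile acid synthesis in liver. Fgf15 was well above background on 0 VND3207 arrays and 3 vehicle arrays, and so entered the test through the vehicle group alone. In VND3207 mice its signal was at least 2.54-fold lower (limma adjusted p = 0.00194). The bile acid exporter genes Slc51a (0.01 ± 0.10) and Slc51b (0.16 ± 0.21) did not pass. The ileal markers, among them Fgf15, summed to 18.7 to 27.2 on the VND3207 arrays and 15.9 to 24.1 on the vehicle arrays. Nearly all of each sum was Slc51b, so the sum does not describe Fgf15. The other ileal markers were dim and not called. Fabp6 had a mean log2 signal of -1.95 in VND3207 mice and -1.99 in vehicle mice, and Slc10a2 had -2.52 and -2.85.

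Of 7 tested vitamin D targets, 1 was called lower, against 9.21% of all named genes, and 0 higher, with a median of -0.12. Trpv6, an apical calcium channel, had log2 signals of -4.24, -4.18 and -4.00 in VND3207 mice, against -3.16, -3.09 and -3.02 in vehicle mice. VND3207 mice lay below vehicle mice throughout, and its difference of -1.05 ± 0.11 (adjusted p = 0.00303) was -0.32 after the trend correction (adjusted p = 0.122). With quantile normalization the Trpv6 difference was -0.73 and still called (limma adjusted p = 0.0121). S100g, the intestinal calcium-binding protein, differed by -0.12 ± 0.55.

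Thyroid hormone receptors and RORs did not pass on any of 7 probes. Thra, the thyroid hormone receptor that prevails in the intestine, had log2 signals of 4.33, 4.36 and 4.65 in VND3207 mice and 4.43, 4.55 and 4.63 in vehicle mice on its brighter probe. The groups overlapped, with a difference of -0.09 ± 0.13. The dimmer Thra probe had -0.80, -0.76 and -0.77 in VND3207 mice and -0.88, -0.99 and -0.85 in vehicle mice. There the groups did not overlap, by a small margin, and the difference of 0.13 ± 0.09 became 0.47 after the trend correction (adjusted p = 0.0350). Thrb differed by -0.02 ± 0.14, Rora by 0.08 ± 0.17 and Rorb by -0.45 ± 0.38. Of 7 tested thyroid hormone targets and 12 tested ROR target and clock genes, 0 were called in either direction, with medians of 0.04 and -0.05.

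The NR2 and NR6 orphan receptors did not pass on any of 9 probes. Nr2f6, a repressor of the COUP family, came nearest, with log2 signals of 4.44, 4.51 and 4.61 in VND3207 mice, against 4.83, 4.89 and 4.77 in vehicle mice. The groups did not overlap. The difference of -0.31 ± 0.10 missed the threshold (adjusted p = 0.0976) and was -0.05 after the trend correction. It was called with normexp background correction (-0.38, adjusted p = 0.0448) and with limma's trended robust variance (adjusted p = 0.0359). Nr2c2, or TR4, had 0.91, 0.97 and 0.92 in VND3207 mice and 0.82, 0.76 and 0.90 in vehicle mice. Every VND3207 value was above every vehicle value, yet the difference of 0.10 ± 0.09 did not pass and was -0.15 after the trend correction. Its relative Nr2c1, or TR2, differed by -0.01 ± 0.12, and Nr6a1, the germ cell nuclear factor, by 0.22 ± 0.21.

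Nr2f1 and Nr2f2, the COUP transcription factors known from stromal and smooth muscle cells, were lowest among the VND3207 mice in replicate 3. Nr2f2 had log2 signals of -0.50, -0.42 and -0.88 in VND3207 mice and -0.88, -0.95 and -0.52 in vehicle mice. Nr2f1 had -1.66, -1.77 and -2.35 in VND3207 mice and -1.91, -1.83 and -1.50 in vehicle mice. That mouse also had the low smooth muscle sum given above, and the part of tissue makeup in these values was not tested. The differences were 0.18 ± 0.18 and -0.18 ± 0.22. The dimmer Nr2f1 probe gave 0.77 ± 0.35 (adjusted p = 0.221), the widest gap between probes of a gene with no called probe, at 0.955.

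Oestrogen-related receptors, which drive mitochondrial genes without a known natural ligand, did not pass. Esrra had log2 signals of 6.29, 6.23 and 6.41 in VND3207 mice and 6.21, 6.24 and 6.27 in vehicle mice. The groups overlapped, and the difference was 0.07 ± 0.10. Esrrg had -1.82, -2.12 and -1.90 in VND3207 mice, against -1.69, -1.47 and -1.78 in vehicle mice, on its brighter probe. The groups did not overlap on either Esrrg probe, with differences of -0.30 ± 0.14 and -0.23 ± 0.11 that did not pass (adjusted p = 0.220 and 0.230). Esrrb differed by -0.02 ± 0.12. Of 9 tested ERR target genes, 1 was called lower, against 9.21% of all named genes, and 0 higher, with a median of -0.09. The called gene was Atp5b of the ATP synthase (-0.52 ± 0.10, adjusted p = 0.0211). With quantile normalization Atp5b was at -0.18 and the call was lost (adjusted p = 0.281). After the trend correction it was at -0.47 and still called (limma adjusted p = 0.0337).

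The remaining steroid receptors did not pass either. Esr2, the oestrogen receptor beta, differed by 0.07 ± 0.16. Nr3c2, the mineralocorticoid receptor, had log2 signals of -2.09, -2.11 and -1.50 in VND3207 mice and -1.65, -1.35 and -1.63 in vehicle mice. These overlap, with a difference of -0.36 ± 0.20 that was -0.02 after the trend correction. Of 7 tested oestrogen and progesterone targets and 6 tested mineralocorticoid pathway genes, 0 were called in either direction, with medians of 0.23 and 0.17.

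Nr4a2, an NR4A receptor that is induced rapidly by stress signals, did not pass, at 0.01 ± 0.13 and -0.01 ± 0.11 on its probes. Of 13 tested immediate early genes that are induced with the NR4A receptors, 2 were called higher, against 0.755% of all named genes, and 0 lower. Their median was 0.01. Those called were the phosphatase gene Dusp1 (0.51 ± 0.11, adjusted p = 0.0248) and the antiproliferative gene Btg2 (0.41 ± 0.10, adjusted p = 0.0356). With quantile normalization both still passed, at 0.54 and 0.39 (limma adjusted p = 0.0277 and 0.0446). After the trend correction neither passed (adjusted p = 0.156 and 0.259). Junb passed after the trend correction, at 0.58 (adjusted p = 0.0453), while its uncorrected difference was 0.48 (adjusted p = 0.103). Fosb went the other way without passing, at -1.16 ± 0.38 (limma adjusted p = 0.103), and at -0.99 after the trend correction (limma adjusted p = 0.169).

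Of 21 tested coregulators, the proteins that receptors recruit to open or close chromatin, 0 were called, with a median of 0.02.

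Probes of the same receptor often disagreed in sign. Of 16 receptor genes with more than 1 tested probe, 11 had differences of opposite sign, most of them close to 0.

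Mice of the same group also differed from each other, and an order of mice picked out after the values were seen is given here as a description. Over 14 of the 51 receptor probes the highest VND3207 mouse was replicate 3 and the highest vehicle mouse was replicate 2. That is 27.5%, near the 20.8% of all tested probes, and so is no result about the receptors as a group. The probes in that order included Nr1i2, both probes of Nr1i3, Vdr, Nr0b2, Pparg, Nr3c2 and Esr2. Nr1i2 had log2 signals of 2.84, 2.74 and 3.25 in VND3207 mice and 2.74, 3.15 and 2.68 in vehicle mice.

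Target genes were read for the same order, again as a description. It was found in 13 of 14 tested PXR and CAR targets, with Sult1d1 as the exception, in 13 of 17 PPAR targets, in 7 of 9 ERR targets and in 4 of 7 vitamin D targets, Vdr included. It was found in 1 of 13 LXR targets, and in 1 of 7 each for FXR, thyroid hormone and LRH-1 targets. The counts were 7 of 20 for retinoic acid targets and retinoid metabolism, 2 of 12 for ROR targets and clock genes and 2 of 13 for immediate early genes. They were 3 of 7 for oestrogen and progesterone targets, 2 of 6 for mineralocorticoid pathway genes, 3 of 9 for receptors outside the group and 7 of 21 for coregulators. Over all tested probes the share was 20.8%. Cyp2b10, a CAR target, had log2 signals of 7.05, 6.70 and 7.71 in VND3207 mice and 7.10, 7.65 and 6.94 in vehicle mice. Among the cell type markers the order was found in 7 of 12 enterocyte genes, 5 of 9 T cell and innate lymphoid genes, 2 of 4 duodenum and stomach genes and 2 of 6 pancreatic acinar genes. It was found in 1 of 7 adipocyte and 1 of 7 endothelial genes and in none of the smooth muscle, fibroblast, neuron and glia, macrophage, B cell and ileal genes tested. The part of tissue makeup in it was not tested.

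**Figure D4:**
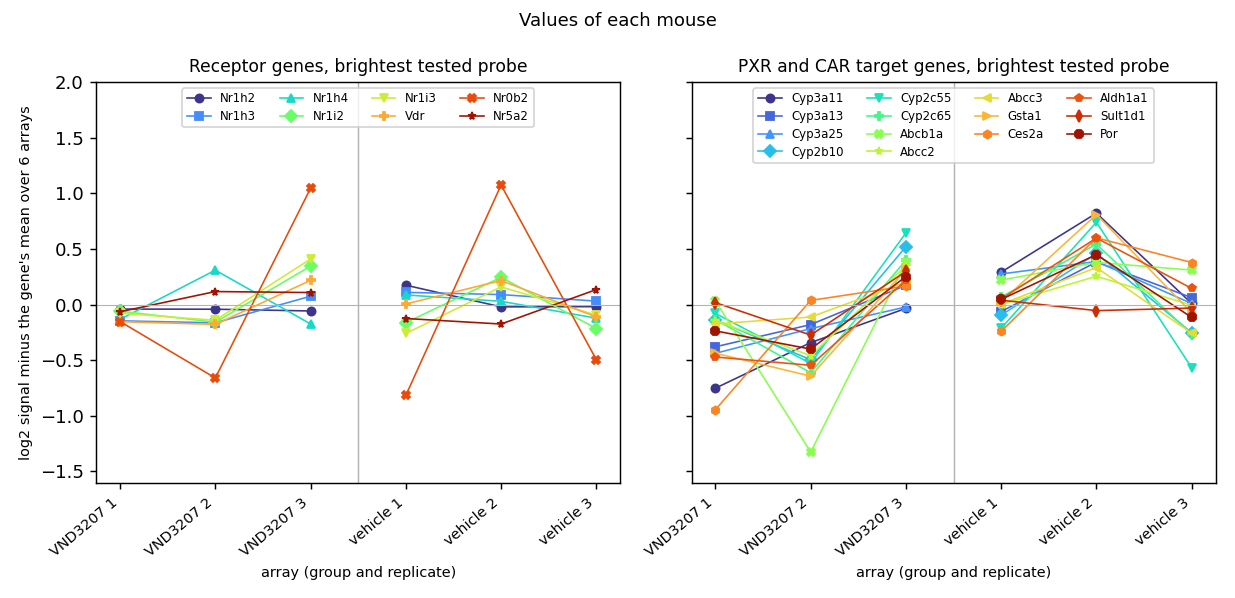
Deviation of the log2 signal from each gene's own mean (vertical axis) in each VND3207 mouse and each vehicle mouse (horizontal axis) for the 8 sterol, bile acid, xenobiotic and vitamin D receptor genes, Nr0b2 and Nr5a2 included (left) and the 14 tested PXR and CAR target genes (right), with lines joining the values of 1 gene within a group. Nr1i2, Nr1i3, Vdr, Nr0b2 and 13 of the 14 targets peak in VND3207 replicate 3 and vehicle replicate 2.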

How the data were processed

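Gene expression was measured in jejunum of 6 mice, 3 given VND3207 and 3 given vehicle, on 1-colour arrays with 60-base probes. The deposited intensity values are, per the file headers, the Cy3 processed signal of Agilent Feature Extraction 10.7.1.1, detrended and background-subtracted within the array and not scaled between arrays. A further deposited table gives log2 values. How it was scaled and centred is not given in the sources used here, and it served only as an alternative. Control spots and outlier flags were left out, log2 processed signals were taken minus each array's 75th percentile, and spots of a probe were averaged. Probes entered the test when at least 3 of the 6 arrays showed them well above background.

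Differences were tested with limma 3.58.1 in R 4.3.3 (lmFit, then eBayes; 2-sided; no covariate beside group), with Benjamini-Hochberg adjustment over 36102 probes and a threshold of 0.05. The ± values are limma's standard errors. A smooth correction for spot row by brightness, column and GC content used mgcv 1.9.3 and may take away some of a real difference as well. A gene not well above background on any array of a group was given a lower bound on its fold against the lowest signal well above background on each array, or its own signal where higher. The number of arrays limits the precision. The steps were tested on simulated data.

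Members and gene lists were chosen with earlier results of these data known, and some target lists hold receptor genes of the group that are targets themselves (Rarb, Nr1h3, Nr0b2, Vdr, Thrb, Nr5a2 and Nr4a2 among them). Every receptor was named, with each array's value where a probe was called, where the groups did not overlap on its brightest probe, or where it was among the 10 brightest. From each other list called genes were named first and then the brightest, up to 4. Some items are not reported here. Per array values of further receptors, and Sult1d1, Junb, Fosb, Snap25, Cidec, Cfd, Fabp6 and Slc10a2, were named after their values were seen. Same-numbered mice did not deviate together (correlations of 0.13, -0.11 and -0.05), so replicate numbers were not used as pairs. Alternatives were other normalizations, background correction, filters, probe summaries, variance models, a replicate block, a looser threshold and each array left out. A slide or scan block was not run, because each holds 1 group and could not be fitted.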

Additional observations from a re-analysis of the deposited data

How the results depend on the processing

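The called probes of Rxrg and Nr5a1 were lower in VND3207 mice and called in all 18 alternatives that gave a value. Their differences were -1.10 to -0.81 and -0.94 to -0.68. The isoform 1 probe of Rarb was lower in all 16 alternatives that gave a value and called in 14. Its difference was -1.56 to -0.43 (limma adjusted p from 0.00407 to 0.0840). Among the alternatives, an adjusted p under 0.1 keeps every called probe by definition. The filters on dim probes changed the adjusted p and not the difference, so these are not independent checks. The count of receptor probes called lower was 2 to 4 except at an adjusted p under 0.1, where it was 5 with the dimmer Rxra probe and Nr2f6, which were also called in 1 and 2 other alternatives. Receptor probes called higher numbered 1 with normexp background correction (Nr2f1, 0.46, adjusted p = 0.0293), 1 after the trend correction (Thra) and 2 with no filter on dim probes (Nr0b1, 0.61, and Esr1, 0.62, neither well above background on any array). Over all probes, the counts called lower and higher were 5259 and 334 by the tests above, 3257 and 852 with quantile normalization, 3176 and 919 in the deposited value table and 2402 and 995 after the trend correction. Normexp gave 2832 lower, probes well above background on all 6 arrays 2923 lower, no filter 662 higher and an adjusted p under 0.1 gave 816 higher. Leaving out 1 array gave 2963 (without vehicle replicate 2) to 5071 lower and 126 (without VND3207 replicate 1) to 287 higher, with 3 receptor probes lower and 0 higher each time. With the replicate number as a block, 3410 probes were lower and 143 higher in all, and 3 receptor probes lower and 0 higher. The cause of these shifts was not tested. Of the 48 uncalled receptor probes, 27 changed sign under at least 1 of the 19 alternatives. No slide or scan block could be fitted. Dim receptors such as Rarb isoform 1 and Esr1 are limited by signal near background.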
